A study of Homo sapiens with 12 samples.

Results

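Divergent promoters are places where a gene read to the left and a gene read to the right begin close together, so that both transcription start sites (TSSs) lie on 1 short stretch of DNA. Among 58344 TSS windows on the nuclear chromosomes, 2302 such pairs were found, which hold 4604 windows or 7.89% of the total. A pair was a minus-strand TSS lying 0 to 1000 bp to the left of a plus-strand TSS, and of 2457 candidates each window was kept in its closest pair. The 50007 windows with no opposite-strand TSS within 1000 bp, called isolated here, are what the pairs were set against. The remaining 3733 windows had an opposite-strand TSS nearby but belonged to no pair, for example because the 2 transcripts overlap.

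The cells were HEK293, an established human embryonic kidney line, untreated and in 1 condition. Chromatin fixed with formaldehyde was precipitated with BG4, an antibody that recognises G-quadruplexes, and sequenced (G4-ChIP-seq). There were 3 biological replicates (BioRep1, BioRep2 and BioRep3) with 3 technical ChIP libraries each, and 3 inputs that were not analysed here, so no level is relative to DNA that was not precipitated. The values are read counts in windows of 400 bp centred on GENCODE TSSs, scaled to the total of reads in windows of each library as CPM, and 1 list of peaks per biological replicate.

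A G-quadruplex is a stack of planar guanine tetrads formed by DNA with several short runs of guanines, and such DNA is common at CpG-rich promoters. Divergent promoters are mostly CpG-rich, often serve housekeeping and DNA repair genes, and give both transcripts from a shared region of open chromatin. Many other coding promoters give a long non-coding RNA (lncRNA) in the opposite direction.

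The stretches below are shown because they carry the contrasts described later. The first 3 lie in pairs with strong signal in both windows, and the last 2 are the opposite ends of 1 pair with signal at a single end. Each is the RefSeq promoter (GRCh38.p14), from 250 bases before to 50 bases after the gene's RefSeq start, written 5′ to 3′ on the strand of the named gene. Capitals mark a G-quadruplex motif: 4 runs of GGG separated by 1 to 7 bases of any kind, or the same with CCC where the motif is on the other strand.
ARL3 (partner SFXN2), chr10:102714348-102714647, minus strand: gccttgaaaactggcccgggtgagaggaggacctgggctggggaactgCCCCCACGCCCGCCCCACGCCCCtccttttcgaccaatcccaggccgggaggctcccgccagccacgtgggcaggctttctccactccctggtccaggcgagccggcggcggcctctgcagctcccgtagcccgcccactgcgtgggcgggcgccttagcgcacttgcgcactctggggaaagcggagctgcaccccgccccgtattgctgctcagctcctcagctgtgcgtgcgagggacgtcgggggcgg
C11orf68 (partner DRAP1), chr11:65919013-65919312, minus strand: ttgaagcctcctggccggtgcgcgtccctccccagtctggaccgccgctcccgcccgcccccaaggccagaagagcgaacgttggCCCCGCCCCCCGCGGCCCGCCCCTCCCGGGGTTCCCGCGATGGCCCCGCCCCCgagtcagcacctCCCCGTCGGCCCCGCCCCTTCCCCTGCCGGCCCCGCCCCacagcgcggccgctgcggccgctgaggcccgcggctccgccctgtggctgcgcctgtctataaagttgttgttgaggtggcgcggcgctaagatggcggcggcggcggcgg
TK1 (partner AFMID), chr17:78187155-78187454, minus strand: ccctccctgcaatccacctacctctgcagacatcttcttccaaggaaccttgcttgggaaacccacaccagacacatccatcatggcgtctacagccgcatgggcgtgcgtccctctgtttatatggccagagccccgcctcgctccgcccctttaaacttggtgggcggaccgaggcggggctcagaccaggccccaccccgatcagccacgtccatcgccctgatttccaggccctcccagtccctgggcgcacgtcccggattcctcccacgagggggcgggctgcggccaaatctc
FAF1 (partner CDKN2C), chr1:50960218-50960517, minus strand: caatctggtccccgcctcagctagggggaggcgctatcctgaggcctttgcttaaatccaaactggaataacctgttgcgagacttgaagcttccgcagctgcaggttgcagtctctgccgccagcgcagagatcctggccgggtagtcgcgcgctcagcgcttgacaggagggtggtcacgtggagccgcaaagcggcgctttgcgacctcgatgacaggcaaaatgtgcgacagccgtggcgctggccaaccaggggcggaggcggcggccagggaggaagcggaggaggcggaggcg
CDKN2C (partner FAF1), chr1:50960495-50960794, plus strand: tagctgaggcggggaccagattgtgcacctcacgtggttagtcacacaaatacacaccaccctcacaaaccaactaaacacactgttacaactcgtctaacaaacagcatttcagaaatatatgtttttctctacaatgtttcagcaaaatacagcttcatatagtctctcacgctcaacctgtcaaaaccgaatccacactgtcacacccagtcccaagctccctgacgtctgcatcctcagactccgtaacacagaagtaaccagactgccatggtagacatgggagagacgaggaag

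In the ARL3 stretch the partner's TSS is at base 110 and ARL3's at base 241 as the deposited windows place them. The motif lies outside the interval between them, on the SFXN2 side. In the C11orf68 stretch, with 77.3% G and C, 92 bases fall in motifs. The partner's TSS is there at base 56 and C11orf68's at base 196, and the motifs lie between. The TK1 stretch had 64.0% G and C and no motif, although a region present in all 3 peak lists covers it whole. The FAF1 stretch had 64.3% G and C, the CDKN2C stretch 46.3%, and neither had a motif.

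The median distance between the 2 TSSs was 167 bp, with quartiles at 83 and 381.75 bp. In 1753 pairs (76.2%) it was under 400 bp, so the 2 windows overlap and share reads, and in 549 pairs the windows share no base. Names were given by position, which named 3229 of the 4604 windows. Both windows were named for protein-coding genes in 436 pairs, and 1160 pairs had both windows named. Depth was 372030 to 846114 reads in windows per library, and pair windows took 17.4 ± 0.755% of these reads (SD, n = 3 biological replicates; lowest library 16.5%, highest 18.3%). The labels do not say whether the biological replicates were separate cultures, so their spread may be technical.

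Peaks were more frequent at divergent pairs than at isolated TSSs in every list. A peak lay in 35.6% of pair windows in BioRep1, 48.5% in BioRep2 and 50.9% in BioRep3, against 6.02%, 8.71% and 9.59% of isolated windows. Over all nuclear windows the shares were 9.45%, 13.5% and 14.6%. The difference was 36.9 ± 6.41 percentage points (SD, n = 3) and was positive in all 3 lists. An exact two-sided sign-flip permutation test over the 3 biological replicates gave p = 0.25, the smallest it can give, so this design cannot pass 0.05.

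A peak in all 3 lists, called a consensus peak, lay in 1572 of the 4604 pair windows, or 34.1% (95% Wilson interval 32.8 to 35.5%, counting error only), against 5.59% of isolated windows (5.40 to 5.80%). Over all nuclear windows the share was 8.89%. The 3733 windows near an opposite-strand TSS that formed no pair were between these, at 21.9%. That is above the 15.8% of windows in pairs at least 400 bp apart. Among protein-coding windows these 2 shares were 34.3% and 34.1%. Of windows with a BioRep3 peak, 67.0% had a peak in all 3 lists at pairs, against 58.3% at isolated TSSs.

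The size of the difference depended on the TSS distance. Where the windows share no base, 15.8% of pair windows had a consensus peak, and the difference in list shares from isolated windows was 13.1 ± 1.79 points (n = 3, positive in 3 of 3 lists). Under 400 bp it was 44.4 ± 7.87 points. In overlapping windows 1 peak is usually counted in both, so the windows of such a pair are not separate observations.

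Gene type differed between the classes, and the contrast was present within protein-coding and lncRNA windows. Of 2024 protein-coding pair windows, 974 (48.1%) had a consensus peak, against 20.2% of 10616 isolated protein-coding windows; the share over all protein-coding windows was 25.5%. The difference in list shares was 33.5 ± 4.51 points, or 16.6 ± 1.96 points for pairs at least 400 bp apart. Among lncRNA windows 282 of 807 (34.9%) at pairs had one, against 2.52% at isolated TSSs. Pseudogene windows were low in both arrangements, at 5.56% in pairs and 0.267% when isolated.

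**Figure D1:**
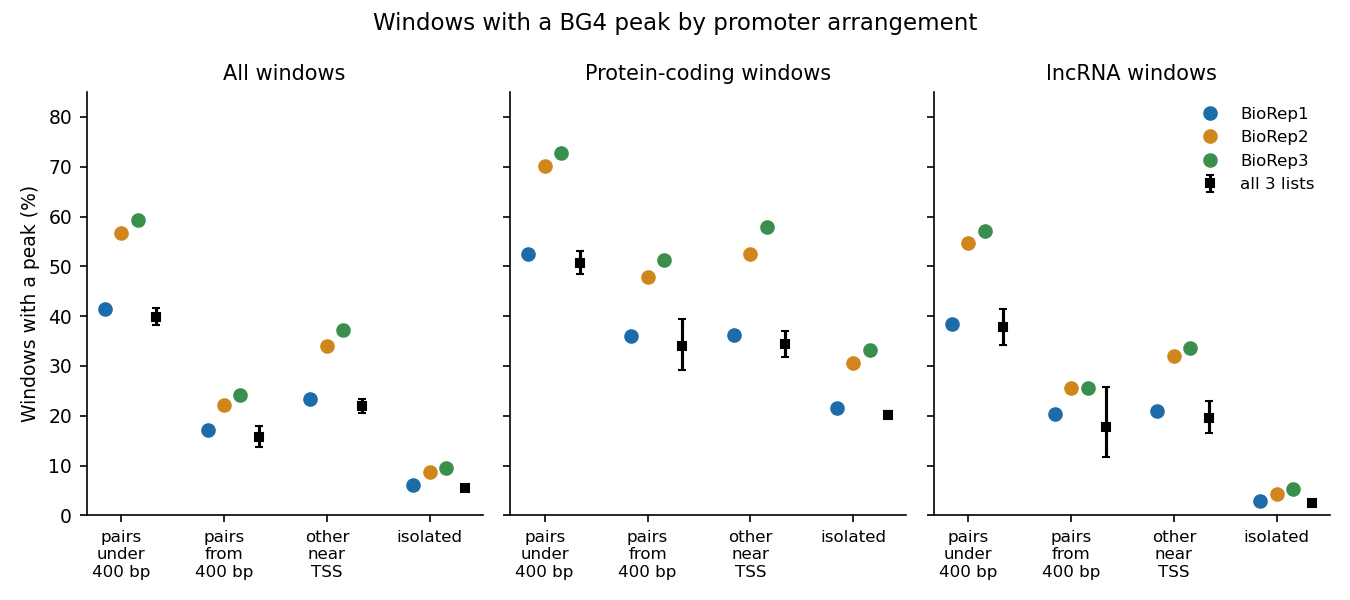
Percent of windows with a BG4 peak for pairs under 400 bp apart, pairs at least 400 bp apart, other windows near an opposite-strand TSS and isolated windows, in all, protein-coding and lncRNA windows. Circles are the 3 peak lists, squares the share with a peak in all 3 lists with its 95% Wilson interval. Pair windows lie above isolated windows in every list and panel, at 34.1% against 5.59% for a consensus peak over all pairs.

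Read levels showed the same order. The median pair window had 33.2 CPM in BioRep1, 34.3 in BioRep2 and 34.7 in BioRep3, against 8.84, 8.26 and 8.28 CPM in the median isolated window. The log2 ratio of these medians was 2.01 ± 0.09 (SD, n = 3), was above 0 in all 9 libraries, and ranged from 1.81 to 2.14 (exact sign-flip permutation p = 0.25, the smallest possible). The medians of both classes did not overlap between any of the libraries. The log2 ratio was 1.40 ± 0.09 in protein-coding windows and 0.72 ± 0.05 for pairs at least 400 bp apart. These are 4.03-fold over all pair windows, 2.63-fold in protein-coding windows and 1.65-fold in the wide pairs.

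Counting a pair once, 866 of 2302 pairs (37.6%, interval 35.7 to 39.6%) had a consensus peak in at least 1 window, and 706 of them in both. Over all pairs the share with a consensus peak was highest at intermediate distances. It was 35.8% for TSSs 0 to 99 bp apart, 44.4% at 100 to 199 bp, 47.3% at 200 to 299 bp and 40.1% at 300 to 399 bp. It was lower beyond that, at 33.2% for 400 to 599 bp, 27.7% for 600 to 799 bp and 18.3% for 800 to 1000 bp. By list, the low share under 100 bp was clearest in BioRep1, at 37.8%, against 49.1% at 200 to 299 bp. In BioRep2 these shares were 57.6% and 61.0%, and in BioRep3 60.3% and 62.1%. At 300 to 399 bp they were 42.9%, 51.6% and 53.8%, so there BioRep2 and BioRep3 were below their closest pairs and BioRep1 was not. The intervals of the consensus share at neighbouring distances overlap, apart from those of the first 2 classes, and no test was run over pairs. Pairs of 2 protein-coding genes did not show the lower share in at least 1 window beyond 400 bp. There 18 of 27 had a consensus peak (66.7%, interval 47.8 to 81.4%), against 238 of 409 under 400 bp (58.2%). This count takes in 2 separate stretches in wide pairs and overlapping ones in close pairs. Per window their share was lower beyond 400 bp, at 40.7% (22 of 54) against 57.6% (471 of 818). Both windows had a consensus peak in 4 of the 27 wide coding pairs, against 233 of the 409 closer ones. Coding pairs are few among the wide pairs. At the limit of the definition there was no step: 14 of 79 pairs 901 to 1000 bp apart had a consensus peak (17.7%), and 16 of 76 candidate pairs 1001 to 1100 bp apart (21.1%).

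**Figure D2:**
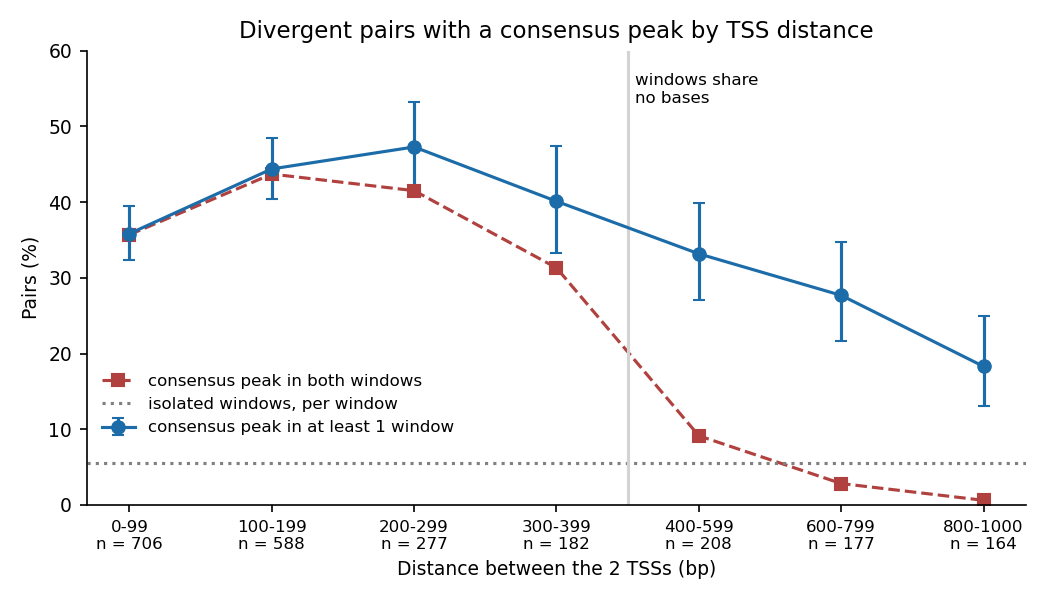
Percent of divergent pairs with a consensus peak in at least 1 window (circles, 95% Wilson intervals) and in both windows (squares) by the distance between the TSSs in bp. The share in at least 1 window is 47.3% at 200 to 299 bp and 18.3% at 800 to 1000 bp, where both windows carry a peak in 0.61% of pairs. The dotted line is the 5.59% of isolated windows with a consensus peak.

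The share had a wider spread over gene types than over distance. Pairs of 2 protein-coding genes had a consensus peak in 256 of 436 cases (58.7%, interval 54.0 to 63.2%). Pairs of a protein-coding gene and a lncRNA had one in 249 of 490 (50.8%), and those of a protein-coding gene and an unnamed window in 216 of 577 (37.4%). Without a coding gene the share was 16.0% over 714 pairs. It was 45 of 233 where both windows were unnamed, 3 of 53 for 2 lncRNAs, and 1 of 68 for 2 pseudogenes.

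The share differed with the partner also when the window's own type was fixed. Protein-coding windows had a consensus peak in 56.5% of cases beside a protein-coding partner, 49.6% beside a lncRNA, 36.2% beside an unnamed partner, 25.4% beside a pseudogene and 52.2% beside a small RNA (12 of 23). At 400 bp or more, where no reads are shared, it was 40.7% beside a coding partner (22 of 54) and 43.2% beside a lncRNA (19 of 44), so the order of these partners turned, within intervals that overlap. A lncRNA window had one in 46.9% of 490 cases beside a protein-coding gene, and in 4.72% of 106 beside another lncRNA, against 2.52% of isolated lncRNA windows. Most windows beside a coding gene share its reads: at 400 bp or more the share for lncRNA windows with a coding partner was 22.7% (10 of 44). Of 8 lncRNA windows that far from a lncRNA partner, 0 had a consensus peak, with an interval reaching 32.4%.

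Most consensus regions had their midpoint between the 2 TSSs, except in the tightest pairs. Consensus regions, the merged peaks that overlap in all 3 lists, touched a window in 866 pairs; this count equals that of pairs with a consensus peak by coincidence, since the sets differ in a few pairs. They numbered 880, and 567 had their midpoint between the TSSs (64.4%, interval 61.2 to 67.5%), 159 left of the minus-strand TSS and 154 right of the plus-strand TSS. The midpoint lay between the TSSs in 37.2% of regions in pairs under 100 bp apart, 74.2% at 100 to 199 bp, 78.6% at 200 to 299 bp and 85.5% at 300 to 399 bp. Beyond 400 bp the share was 69.9% of 153 regions. For comparison, the share of regions at isolated TSSs with a midpoint upstream by no more than the median distance of the class was 23.4% under 100 bp, 53.0% at 100 to 199 bp, 63.5% at 200 to 299 bp and 66.8% at 300 to 399 bp. The share between the TSSs was above it in these 4 classes. At 600 to 799 bp the share was 80.0% (40 of 50, interval 67.0 to 88.8%), against 67.9%, which lies within the interval. The share was not above that of isolated TSSs at 400 to 599 bp (64.8%, against 67.8%) or at 800 to 1000 bp (65.6%, against 67.9%).

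Regions in close pairs lay on both sides of the centre of the pair, and most midpoints were outside the middle of 3 equal parts of the interval. That middle part held 13.1% of midpoints for TSSs under 100 bp apart and 31.5% at 100 to 199 bp. It held 36.6% at 200 to 299 bp and 43.4% at 300 to 399 bp. Under 100 bp, 159 of 253 midpoints lay outside the interval. The median distance of the midpoint from the centre of the pair was 41.0 bp for TSSs under 100 bp apart, 41.5 bp at 100 to 199 bp, 59.0 bp at 200 to 299 bp and 79.5 bp at 300 to 399 bp. Measured with its direction, the median over all 880 regions was −1.75 bp, where negative values lie towards the minus-strand gene. The region, 349 bp long in the median, covered both TSSs in 565 of 880 cases (64.2%) and in 91.7% of cases under 100 bp. The share between 2 TSSs depends on how far apart they are, because a stretch of 60 bp holds few midpoints.

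Pairs at least 400 bp apart seldom had 2 separate regions. Of 549 such pairs, 147 had 1 consensus region, 3 had 2 and 399 had none. A region was counted only if it touched a window, so by construction few midpoints far from both TSSs could be counted. Of the 153 midpoints at wide pairs, 46 lay outside the interval between the TSSs. The median distance from the centre was 237 bp for all 153, and 13.1% of them fell in the middle of 3 equal parts of the interval. Relative to the nearest TSS, their median position was 59.5 bp upstream, against 47.5 bp upstream at 2817 regions of isolated TSSs. The quartiles were −149 and 18 bp at the wide pairs, against −107.5 and 19 bp at isolated TSSs, so the positions overlap broadly. At isolated TSSs 67.9% of midpoints were upstream. Choosing the nearest of 2 TSSs shortens the distance at pairs by construction.

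**Figure D3:**
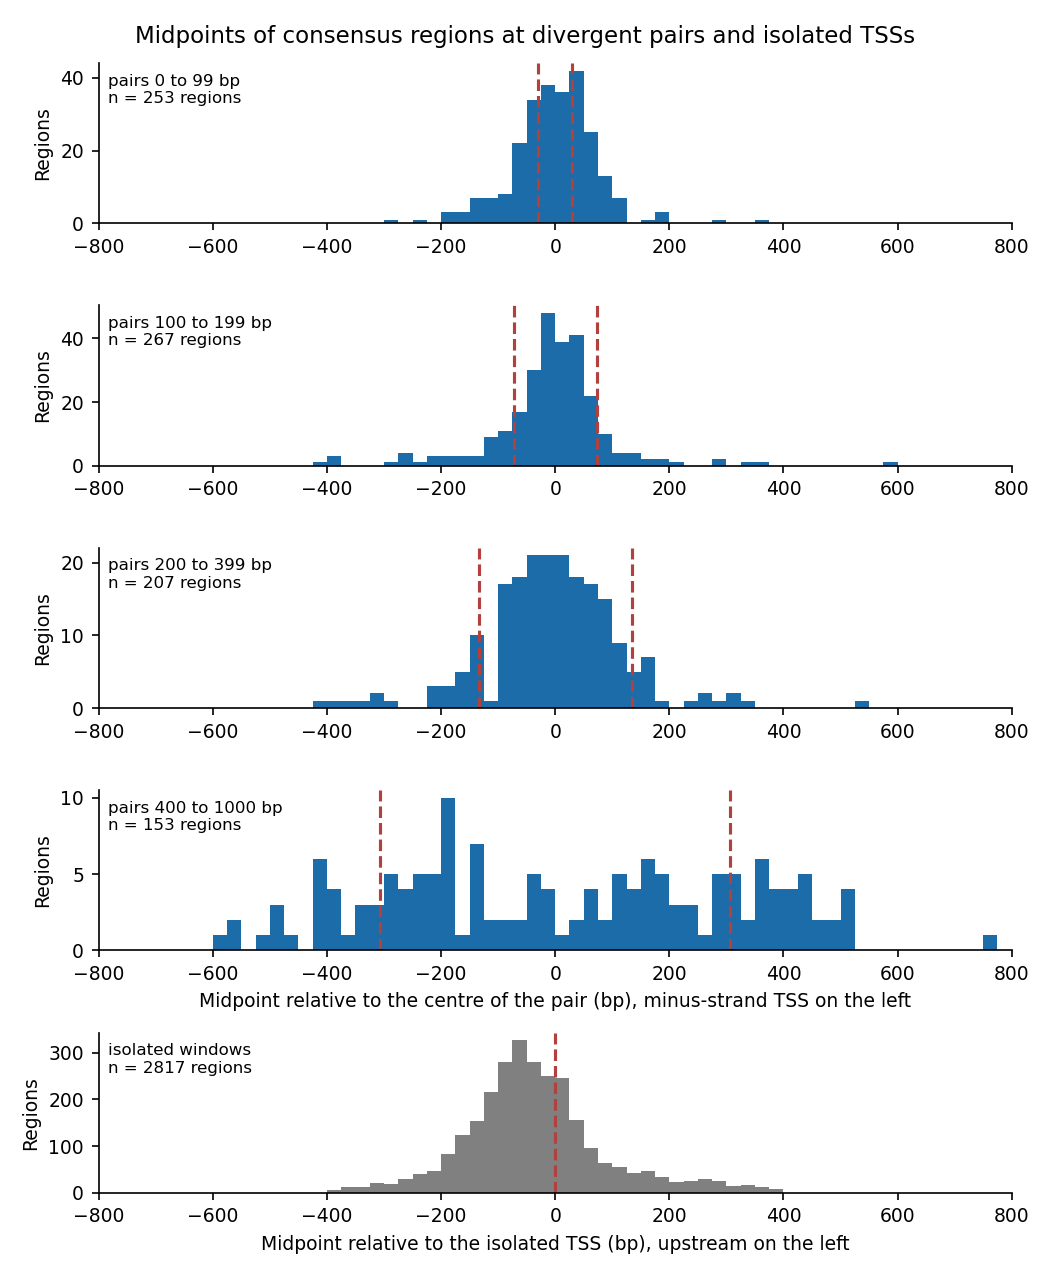
Number of consensus regions by the position of their midpoint in bp, in bins of 25 bp, for pairs in 4 classes of TSS distance (blue, relative to the centre of the pair) and for isolated windows (grey, relative to the TSS, upstream on the left). Dashed lines mark the TSSs, at the median distance of the class. Midpoints gather around the centre in the close pairs, and in those under 100 bp apart 159 of 253 lie outside the interval. At 400 bp and more they spread over and beyond the interval, with a median distance from the centre of 237 bp. Only regions that touch a window are counted. Isolated regions with midpoints more than 400 bp from the TSS are not drawn.

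Where a coding gene faced a lncRNA, the region lay more often nearer the coding TSS. It did so at 164 of 248 regions facing a lncRNA (66.1%, interval 60.0 to 71.7%). The median midpoint lay 59.8 bp upstream of the coding TSS and 102 bp upstream of that of the lncRNA. Facing an unnamed window, 127 of 226 regions were nearer the coding TSS (56.2%, interval 49.7 to 62.5%), and the share differed with distance. With the unnamed window at least 400 bp away it was 53 of 65 (81.5%), but under 200 bp it was 47 of 118 (39.8%). Unnamed windows are those with no RefSeq gene start within 200 bp on their strand.

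Read levels in the wide pairs also differed with gene type. The coding window had more reads than its non-coding or unnamed partner in 186 of 266 wide pairs, with a median log2 ratio of 0.66. It was higher in all 9 libraries in 120 pairs, and the partner was in 13. Over all 549 wide pairs, 198 had the same window higher in all 9 libraries. Of the 123 wide pairs with a consensus peak in a single window, 92 differed by more than 2-fold, though a peak call and a read level rest on the same reads.

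**Figure D4:**
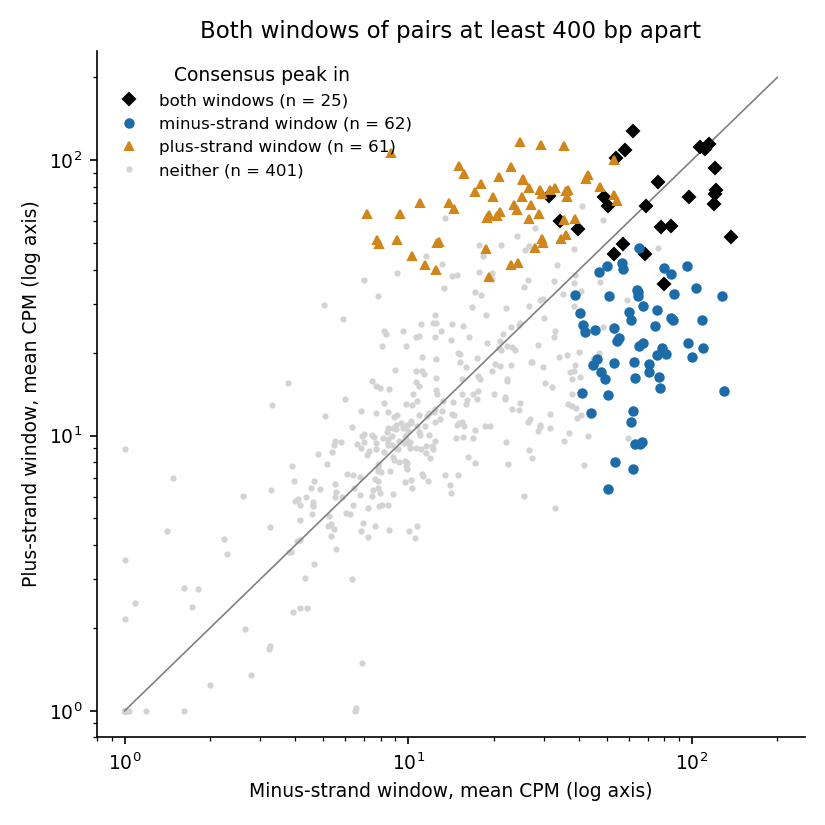
Mean CPM of the plus-strand window against the minus-strand window for the 549 pairs at least 400 bp apart, both on log axes, with means under 1 CPM drawn at 1. Symbols give which window had a consensus peak, and the line marks equal levels. Of the 123 pairs with a peak in 1 window, 92 lie more than 2-fold from the line, and 25 pairs have a peak in both.

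The protein-coding pairs with the steadiest high signal, ranked by the lowest of 9 libraries in their lower window, had both windows far above the isolated median of 8.46 CPM. All 12 had a peak in all 3 lists, which is a description, since their level chose them. TTC13 and ARV1, the second an endoplasmic reticulum protein of sterol homeostasis, begin 106 bp apart on chromosome 1. Their windows span chr1:230978676-230979181 in hg38. TTC13 had 113, 144 and 160 CPM as lowest, median and highest of 9 libraries (mean 141 ± 9.57, SD, n = 3), and ARV1 124, 145 and 162 CPM (148 ± 11.1). The ranges of the 2 windows, which share reads, overlap.

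MZT1, a component of gamma-tubulin complexes, and BORA, an activator of Aurora A and PLK1 at mitotic entry, begin 62 bp apart on chromosome 13. MZT1 had 129 ± 8.17 CPM and BORA 139 ± 8.74 CPM. TK1, the cytosolic thymidine kinase, and AFMID, an enzyme of tryptophan breakdown, begin 84 bp apart on chromosome 17. TK1 had 114, 137 and 177 CPM as lowest, median and highest (142 ± 20.1), and AFMID 108, 130 and 167 CPM (133 ± 21.5). Their region of 563 bp had its midpoint 8.5 bp from the TK1 TSS, between the 2 starts, and the printed TK1 stretch lies inside it.

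ARL3, a small GTPase that releases cargo in cilia, and SFXN2, a sideroflexin of mitochondria, begin 131 bp apart on chromosome 10. ARL3 had 94.1, 123 and 153 CPM (124 ± 14.4) and SFXN2 99.7, 128 and 148 CPM (127 ± 16.9). The midpoint of their 592 bp region lay 77.0 bp from the ARL3 TSS and 54.0 bp from that of SFXN2. C11orf68 and DRAP1, a subunit of the repressor NC2, begin 140 bp apart on chromosome 11, with 112 ± 5.71 and 123 ± 9.32 CPM. Over the 9 libraries C11orf68, with its motif-dense stretch, ranged from 95.5 to 127 CPM, and TK1, with none, from 114 to 177 CPM, so the ranges overlap.

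LMF2, a factor for lipase maturation, and NCAPH2, a condensin II subunit, were the widest of the 12, with 525 bp between their TSSs on chromosome 22 and no shared reads. NCAPH2 had 87.7, 102 and 153 CPM (110 ± 12.3) and LMF2 93.9, 109 and 132 CPM (111 ± 2.68), a log2 ratio of −0.03 ± 0.12 (NCAPH2 over LMF2). A single region of 738 bp touched both windows. TPMT, which methylates thiopurine drugs, and KDM1B, a histone H3 lysine demethylase, begin 255 bp apart on chromosome 6, and KDM1B was the higher at 151 ± 15.6 against 117 ± 14.8 CPM for TPMT. BBIP1, a BBSome subunit, had 119 ± 12.9 CPM and SHOC2, a scaffold of RAS signalling, 109 ± 7.42 CPM.

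The other 4 pairs ranged from 104 to 118 CPM in the mean of either window. TM2D2 is paired with ADAM9, a membrane metalloprotease, and MORN1 with RER1, which returns membrane proteins to the endoplasmic reticulum. FHIP1B is paired with CNGA4, a subunit of olfactory cation channels, and ANO8 with GTPBP3, which modifies mitochondrial tRNAs. BBIP1 and SHOC2 had 2 regions, and in 8 of the 11 pairs with a single region its midpoint lay between the TSSs.

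**Figure D5:**
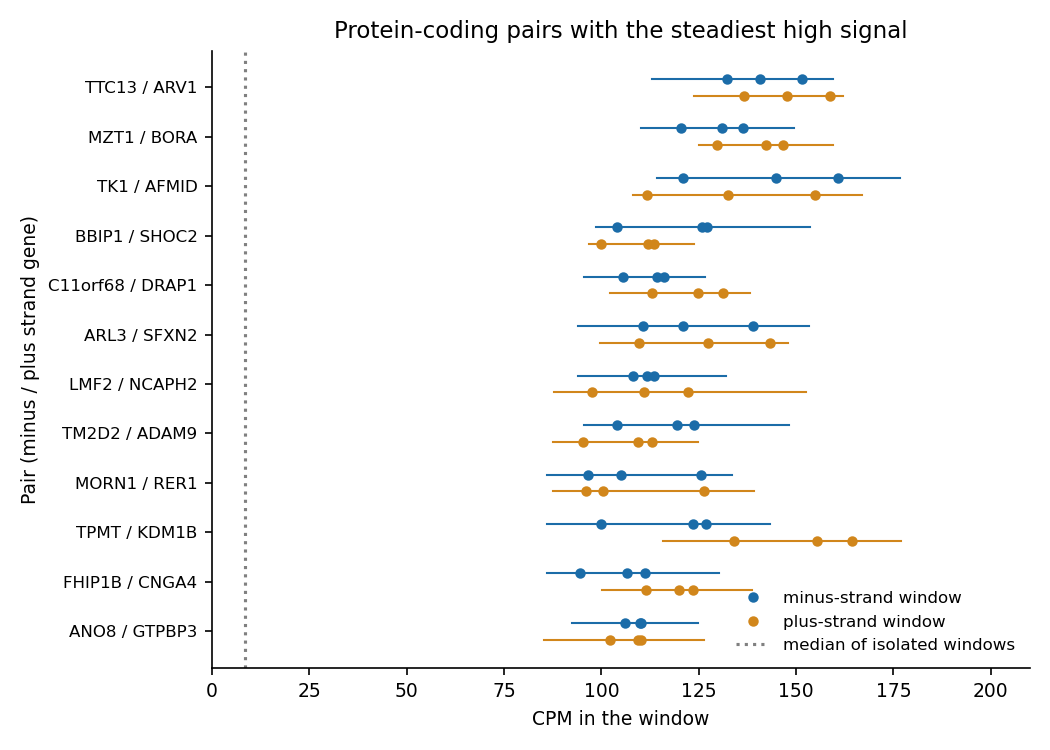
CPM in the minus-strand and plus-strand windows of the 12 protein-coding pairs with the highest lowest-of-9 level. Points are the means of the 3 biological replicates, and lines run from the lowest to the highest of 9 libraries. All lie above 85 CPM, and the dotted line is the median of isolated windows at 8.46 CPM.

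Pairs of a coding gene and a lncRNA reached the same levels. IBA57-DT had 177 ± 14 CPM and IBA57, which helps build iron-sulfur proteins, 164 ± 8.19 CPM, with a region of 932 bp over both starts on chromosome 1. CHKB, a choline kinase, had 139 ± 9.78 CPM and CHKB-DT 137 ± 10.4 CPM, 61 bp apart on chromosome 22. MICALL2 and MICALL2-DT on chromosome 7 share no reads at 435 bp, and there the coding window was higher, with 122 ± 13.3 CPM against 78.0 ± 10.5 CPM for the lncRNA.

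Some wide coding pairs carried the signal at 1 end. C8G, a chain of complement C8, had 8.06, 16.5 and 26.6 CPM and no peak, and FBXW5, a substrate receptor of a ubiquitin ligase, had 45.3, 71.1 and 93.4 CPM and a peak in all 3 lists. The 2 windows are 550 bp apart on chromosome 9 and do not overlap in level, with a log2 ratio of −2.03 ± 0.25 (C8G over FBXW5). CDKN2C, an inhibitor of CDK4 and CDK6, had 12.5, 20.1 and 26 CPM, and FAF1, a ubiquitin-binding cofactor of p97, 57.2, 82.6 and 111 CPM, 482 bp apart on chromosome 1. The log2 ratio was −1.99 ± 0.18 (CDKN2C over FAF1). In the printed stretches, the consensus region covers that of FAF1 from base 61 on and ends short of that of CDKN2C.

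SIPA1L3, a regulator of Rap GTPases, had 64.7 ± 9.04 CPM and a peak in all lists, and its partner WDR87 had 21 ± 4.78 CPM and none. HNRNPUL2, an hnRNP U-like protein, had 103 ± 12.1 CPM, and TTC9C 34.4 ± 7.05 CPM with a peak in 2 of 3 lists. These 4 were chosen for a difference between their windows among 11 wide coding pairs with a consensus peak in 1 window and that window higher in all 9 libraries, so the sizes are descriptions.

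By the names given here, textbook head-to-head genes were mostly not found as pairs. Of 22 listed, 2 were member pairs with both genes named. In 7, 1 gene was paired with a window of another name or none, and 13 were in no pair under their names. Names came by position and some listed genes had none, so an unnamed partner window can be that of the textbook partner. The counts may therefore miss pairs. Of 11 listed pairs with both genes named on opposite strands, 8 overlap head to head by the windows that carry their names. SURF1 and SURF2, for example, had a signed distance of −124 bp (plus-strand minus minus-strand TSS). The count of 8 depends on the naming. It includes BRCA1 and NBR2 at −44635 bp, PPAT and PAICS at −25099 bp, and NFYA and OARD1 at −24842 bp. The PPAT window has an unnamed partner 126 bp away. TK1 and AFMID, described above, are one of the member pairs.

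The window named BRCA1 was paired with NBR1, an autophagy receptor, 236 bp away on chromosome 17, and not with NBR2. Its signed distance to the window named NBR2 was −44635 bp, so its level is not that of DNA beside the NBR2 start. This BRCA1 window had 43.9 ± 3.58 CPM and NBR1 44.2 ± 3.05 CPM, each with a peak in 2 of 3 lists. PPAT, the first enzyme of purine synthesis, had 79.3 ± 3.29 CPM, and its partner window ENSG00000128050.8, which the RefSeq table did not name, 88.1 ± 3.74 CPM.

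Other textbook genes in pairs faced a window that the table did not name. PDCD10 had 69.4 ± 5.39 CPM and a peak in all 3 lists. PRKDC, the catalytic subunit of DNA-dependent protein kinase, had 38.4 ± 3.05 CPM and a peak in 2 lists. ZAR1L had 34.4 ± 1.91 CPM and a peak in 1 list.

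Gene groups are given by their counts, with no test between groups. Of all 13837 protein-coding windows 14.6% were in pairs, and a consensus peak lay in 48.1% of protein-coding pair windows, against 20.2% of isolated ones. DNA repair, cell cycle and proteasome genes lay near the first of these shares, at 50.0% each. In read level the pair windows of a group differed little from its isolated windows: the median pair window was higher in 7 of 11 groups and lower in 4, with log2 ratios from −0.25 to 0.32. Chaperones had 58.0 CPM in pairs, against 60.7 CPM in isolated windows, and cell cycle genes 42.1 CPM, against 50.0 CPM. Each of these ratios was below the log2 ratio of 1.40 over all protein-coding windows. Replication-dependent histone genes, which lie in clusters as head-to-head H2A and H2B genes, were the group most often paired, with 28 of 63 windows. A consensus peak lay in 0 of these 28 (interval up to 12.1%) and in 0 of 33 isolated histone windows. H2AC25 and H2BC26 were the highest, with 62.7 ± 1.17 and 49.0 ± 2.81 CPM and a peak in 2 of 3 lists. The median histone pair window had 22.9 CPM. H2AC18, H2AC19 and H4C15 were listed at 0 reads in all 9 libraries and still count among the 28. They belong to a family with near-identical copies, and whether short reads could be placed in these windows was not tested.

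Chaperone genes were in pairs for 12 of 29 windows, and 8 of the 12 had a consensus peak, against 7 of 13 isolated chaperone windows. DNAJC3, which helps HSP70 in the endoplasmic reticulum, had 92.1 ± 9.04 CPM beside DNAJC3-DT, and CCT6A, a subunit of the TRiC chaperonin, 91.3 ± 14.4 CPM beside PSPH. HSPA1A, an inducible HSP70, had 9.90 ± 1.83 CPM and no peak. TCP1, another TRiC subunit, had 85.4 ± 12.9 CPM in a pair with MRPL18, a mitochondrial ribosomal protein gene at 83.9 ± 14.3 CPM.

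Cytosolic ribosomal protein genes had a consensus peak in 9 of 11 pair windows, against 18 of 37 isolated ones. RPS2 had 98.0 ± 3.53 CPM beside the lncRNA SNHG9, and RPLP0 59.4 ± 8.45 CPM beside PXN-AS1. Mitochondrial ribosomal protein genes had one in 6 of 18 pair windows, against 8 of 31 isolated ones, and MRPL36 had 19.9 ± 3.5 CPM and no peak. Respiratory chain genes had one in 5 of 13 pair windows, against 13 of 32 isolated ones. The intervals of pair and isolated windows overlap in each of these groups.

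DNA repair genes were paired in 18 of 56 windows, and 9 of the 18 had a consensus peak, against 12 of 28 isolated windows. XRCC3, a gene of homologous recombination, had 99.5 ± 20.2 CPM beside ZFYVE21. BARD1, the partner of BRCA1, had 98.0 ± 13.3 CPM, and XRCC6, the Ku70 subunit, 79.6 ± 9.78 CPM. LIG4, the ligase of end joining, had 28.4 ± 1.88 CPM and no peak in any list. DNA replication genes had a consensus peak in 6 of 8 pair windows, against 11 of 21 isolated ones, with TIPIN at 97.3 ± 13.2 CPM and PCNA, the sliding clamp, at 75.1 ± 10.2 CPM. The 6 include the window named FEN1, whose name by position is uncertain.

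Cell cycle genes had a consensus peak in 5 of 10 pair windows, against 15 of 29 isolated ones, and proteasome genes in 3 of 6, against 8 of 21. All 3 paired aminoacyl-tRNA synthetase windows had one, against 8 of 14 isolated windows. Olfactory receptor genes, which encode odorant receptors of the nose, were paired in 3 of 351 windows, and 0 of the 3 paired and 0 of the 344 isolated windows had a consensus peak.

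The count test called no pair window different between the biological replicates. Of 17499 windows that passed the filter on low counts, 3307 were in pairs, and edgeR's quasi-likelihood test with Benjamini-Hochberg adjustment called 0 at 0.05 (0% of all windows tested). The smallest adjusted p of a pair window was 0.147, 314 pair windows (9.50%) had an unadjusted p under 0.05, against 839 isolated windows (7.29%) and 1379 of all windows tested (7.88%), and DESeq2 also called 0. The absence of calls does not show that levels were equal.

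Sequence could be compared for part of the windows, and the comparison by class is void. A RefSeq promoter of the table began within 200 bp of the TSS for 77.7% of protein-coding pair windows and 73.8% of isolated ones, under the 80% set as a minimum. For the windows with a sequence, the motif defined above was present in 29.2% of 1572 pair windows, against 29.7% of 7834 isolated windows and 25.0% of all 35116 promoters in the table. Median G and C content was 65.5% in pair windows, against 61.3% in isolated ones. In those with 60 to 70% G and C, a consensus peak lay in 55.4% of pair windows, against 31.9% of isolated ones. At 70% and more it was 61.1%, against 41.2%. For pairs at least 400 bp apart it was 34.3% of 35 windows at 50 to 60%, against 11.5%, and 42.2% of 90 at 60 to 70%, against 31.9%. At 70% and more it was 37.8% of 82 such windows, against 41.2%, and under 50% it was 0 of 17, against 0.344%. The part of base composition in the higher signal at pairs was not tested.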

How the data were processed

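BG4 ChIP-seq of HEK293 cells was analysed from 9 ChIP libraries, 3 technical libraries in each of 3 biological replicates, grouped by title. No files of the 3 inputs were used. The deposited counts are raw reads per 400 bp window around GENCODE release 28 TSSs (hg38, per the labels and the submitters' processing notes). The authors' peak lists give positions without scores, 1 list per biological replicate. Tools in the submitters' processing notes are BWA, MACS2, Picard, cutadapt and bedtools, without versions. How peaks were thresholded and whether duplicates were counted is not given in the sources used here. Removal of duplicates would cap the densest windows.

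CPM was computed from the reads in windows and averaged over technical libraries. Names came by position from RefSeq (GRCh38.p14): a same-strand 5′ end within 200 bp, protein-coding first, after 263 genes that reached windows at both ends were dropped. At shared promoters a name can belong to a neighbouring gene. A peak counted in a window at 1 bp of overlap. Shares and CPM ratios were compared over biological replicates with exact sign-flip permutation tests. Wilson intervals cover counting error only and take windows as independent, though overlapping windows of a pair usually count the same peak. Counts were tested with edgeR 4.0.16 (quasi-likelihood, TMM, filterByExpr, Benjamini-Hochberg at 0.05) and, as an alternative, DESeq2 1.42.0. The fit was tested on simulated data. Python 3.11.15 and R 4.3.3 were used.

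The genes named in the text were the 12 both-coding pairs ranked by the lowest of 9 CPM values in the lower window, the textbook pairs, 4 wide coding pairs with a peak in 1 window, and 4 coding and lncRNA pairs. Some genes under this rule are not reported here and still count in their lists. Members of the gene groups were named after their values were seen. The pairs and the gene lists were chosen with earlier results of these data known, so the lists are described by counts. The levels of TMEM258 and FEN1, whose names by position are uncertain, are not given. The labelled cell type cannot be checked with markers, because no expression was measured. Alternatives covered other pair definitions, peak rules, size factors, filters and left-out libraries.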

Additional observations from a re-analysis of the deposited data

How the results depend on the processing

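The difference in the share of windows with a peak stayed positive under 18 alternatives, at 13.1 to 44.4 percentage points, and at 34.7 to 40.6 points with a biological replicate left out; the lowest value was that of pairs at least 400 bp apart. The log2 ratio of median CPM stayed above 0 under 21 alternatives, at 0.72 to 2.06, with 1.98 to 2.06 when a library or biological replicate was left out, and 0.72 again for pairs at least 400 bp apart. The share of pairs with a peak, 37.6% for a peak in all 3 lists, was 51.0% for at least 2 lists, 58.4% for any list and 35.4% for an overlap of at least 50 bp. Leaving out a biological replicate gave 37.8 to 49.7%, with the highest value without BioRep1, whose list has the fewest windows with a peak. The share of midpoints between the TSSs, 64.4%, was 58.0% for BioRep1 peaks, 57.2% for BioRep2 peaks, 56.1% for BioRep3 peaks, and 60.8 to 65.0% with a biological replicate left out, lowest without BioRep1. The count of wide pairs with the same window higher in every library was 201 to 227 with a library or biological replicate left out, against 198 over all 9. The count test called 0 pair windows under the other size factors, DESeq2, each library left out (0 to 0) and the technical number as a block (0 called); without a filter on low counts it called 5. The technical numbers do not pair libraries: same-numbered libraries of different biological replicates had correlated deviations of −0.0146 to 0.0262 over 9 pairs, and 3 libraries correlated best with their own number. The protein-coding wide pairs, the names within 1 kb and the left-out libraries for the wide-pair count were chosen after seeing the data. Depth, 372030 to 846114 reads in windows, leaves the median isolated window with few reads, so its CPM takes few distinct values. The causes of these shifts were not tested.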
